A study of Mus musculus with 47 samples.

Results

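The genes described here are the 5 cannabinoid and opioid receptor genes Cnr1, Oprm1, Oprd1, Oprk1 and Oprl1, chosen by name from the 22800 gene symbols of the count table. Their reads were followed in 26 of the 47 sequenced libraries, each of which is 1 NPY-positive neuron. These were 10 cells of the auditory cortex (AC), 13 cells of hippocampal area CA3 and 3 cells of area CA1. The study asked how NPY-positive GABAergic interneurons of a neocortical and an allocortical area differ in gene expression, so AC against CA3 is its main contrast.

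All cells came from 8 mice aged 3-8 weeks, of either sex, that carry a green fluorescent reporter for NPY (NPY-EGFP in the series' design text, NPY-hrGFP in the methods). The labels give no treatment, and the groups differ in brain area and slice plane. AC cells lay in layers 1 and 2 of coronal slices, and CA3 cells in stratum lacunosum-moleculare of horizontal slices, while the layer of the CA1 cells is not given in the sources used here. The cytosol was drawn into the patch pipette and polyadenylated RNA was made into cDNA and Nextera XT libraries. No source names the mouse of a cell, so each area counts as 1 sample, no test was made, and every SD below is a spread over cells given as a description.

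Cannabinoid and opioid receptors are G protein-coupled receptors of the Gi/o class. On axon terminals of GABAergic interneurons, such receptors lower transmitter release by closing calcium channels, and on the cell body they open inwardly rectifying potassium channels. Cnr1 encodes the CB1 receptor for endocannabinoids, which is best known from CCK-type basket cells of the hippocampus and neocortex. Oprm1, Oprd1 and Oprk1 encode the mu, delta and kappa opioid receptors, and Oprl1 encodes the receptor for nociceptin, the peptide made from Pnoc.

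In the GRCm38 build with GENCODE vM21 annotation, Cnr1 (ENSMUSG00000044288) lies at chr4:33924593-33948831 on the plus strand and Oprd1 (ENSMUSG00000050511) at chr4:132110726-132144486 on the minus strand. Oprm1 (ENSMUSG00000000766) spans chr10:6758506-7038198, Oprk1 (ENSMUSG00000025905) chr1:5588466-5606131 and Oprl1 (ENSMUSG00000027584) chr2:181715016-181720985, all 3 on the plus strand. The joined exons of each gene are 6444 bases long for Cnr1, 8037 for Oprm1, 4021 for Oprd1, 9151 for Oprk1 and 3753 for Oprl1. Of the 5 genes, Oprm1 is the one that overlaps other annotated genes, sharing 96 exon bases with Ipcef1 on the minus strand.

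The 4 opioid receptor genes are close relatives, and the stretch below shows how alike their coding sequences are, which bears on whether a read can be given to 1 of them. It is the in-frame run of 60 coding bases within 1 exon where Oprm1, Oprd1 and Oprk1 together are most like Oprl1. It encodes the end of the first intracellular loop and the start of the second transmembrane helix. Each is written 5′ to 3′ on the strand of its gene from GENCODE vM21 transcripts, with capitals at the 17 positions where the 4 genes are not identical.
Oprl1: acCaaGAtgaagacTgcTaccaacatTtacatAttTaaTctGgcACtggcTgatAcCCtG
Oprm1: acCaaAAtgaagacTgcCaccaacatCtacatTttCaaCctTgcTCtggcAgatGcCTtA
Oprd1: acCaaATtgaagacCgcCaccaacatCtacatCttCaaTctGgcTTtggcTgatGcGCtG
Oprk1: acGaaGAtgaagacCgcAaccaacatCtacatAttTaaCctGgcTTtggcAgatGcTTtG
These bases lie at chr2:181718381-181718440 for Oprl1, chr10:6828889-6828948 for Oprm1, chr4:132117405-132117464 for Oprd1 and chr1:5598594-5598653 for Oprk1, and 43 of the 60 are the same in all 4 genes. Oprm1 shares 48 of the 60 with Oprl1, and Oprd1 and Oprk1 share 49 each. Over all annotated transcripts, none of the 10 pairs among the 5 receptor genes shared a run of 30 bases, the shortest read kept by the study. The longest shared run was 27 bases, between Oprm1 and Oprk1.

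Depth differed between cells. Libraries held 1715012 to 6265431 gene reads in AC, 2229519 to 7949918 in CA3 and 601781 to 3202430 in CA1, with 3163 to 6288, 3679 to 8149 and 4367 to 6095 detected genes. The GABAergic markers Gad1 and Gad2 were read in all 26 cells, and the neurogliaform marker Lamp5 in 25. Of the CCK-type interneuron markers, Slc17a8 and Vip had no read in any of the 26 cells, while Cck had reads in 3 AC, 10 CA3 and 2 CA1 cells. Cxcl14, the remaining marker of that list, had 40 reads in 1 CA3 cell, N28. The CA3 cell N29 stood apart: it alone among the 13 CA3 cells lacked reads of Lhx6, a transcription factor of the medial ganglionic eminence lineage, and it alone had reads of Ndnf and Parm1. Markers of other cells were read at lower levels, in CPM (reads per 1000000 gene reads) summed over a list. Of 5 microglia markers 4 were read in AC (0 to 3492 CPM), 4 in CA3 (0 to 228) and 2 in CA1, and of 5 astrocyte markers 4 in AC (0 to 1089), 1 in CA3 (0 to 0.421) and 3 in CA1. Oligodendrocyte markers ran from 0 to 367 CPM in AC and 0 to 955 in CA3, and pyramidal cell markers from 0 to 137 and 0 to 204. Pvalb was read in 2 CA3 cells and Sst in none, and Aqp4, Mog and Tmem119 were at 0 in all 26 cells. In CA1 the ranges were 82.9 to 882 CPM for astrocyte, 0 to 354 for oligodendrocyte, 0 to 138 for pyramidal and 0 to 36.6 for microglia markers, with N1 at the top of the first 3. The AC cell N46 held pyramidal, astrocyte, oligodendrocyte and microglia markers together, at 137, 1089, 367 and 2157 CPM. The part of other cell types in the results was not tested, and values without N29, N46 or N1 are given where they move a result.

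The 5 genes fell into 3 patterns. Cnr1 and Oprl1 were read at more than 100 CPM in some cells and had no read in most of the others. Oprd1 and Oprm1 were read at 1 to 9 reads, apart from Oprd1 in N29. Oprk1 had no read in any of the 47 libraries, whose 116196008 gene reads allow up to 0.0258 CPM (3 reads over all). Per kilobase of exon and 1000000 gene reads (RPKM) over the 26 cells, the levels were 28.1 for Cnr1, 19.01 for Oprl1, 0.492 for Oprd1, 0.0255 for Oprm1 and 0 for Oprk1. On the same scale the GABA-B receptor genes Gabbr1 and Gabbr2 stood at 19.02 and 80.2, which places Cnr1 between them. The value of Cnr1 rests on N29, which held 61.4% of its reads in the 26 cells, as that of Oprd1 does with 92.0%. Without N29 Cnr1 stood at 11.3 RPKM, below Oprl1 (19.7) and Gabbr1, and Oprd1 at 0.0411, and without N40 Oprm1 stood at 0.0134. By area Cnr1 and Oprl1 stood at 16.1 and 27.8 RPKM in AC, 32.6 and 13.4 in CA3 and 66.2 and 13.7 in CA1. The order in AC and CA3 hung on single cells, with 17.8 and 10.3 RPKM in AC without N41 and 1.64 and 14.4 in CA3 without N29.

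**Figure D1:**
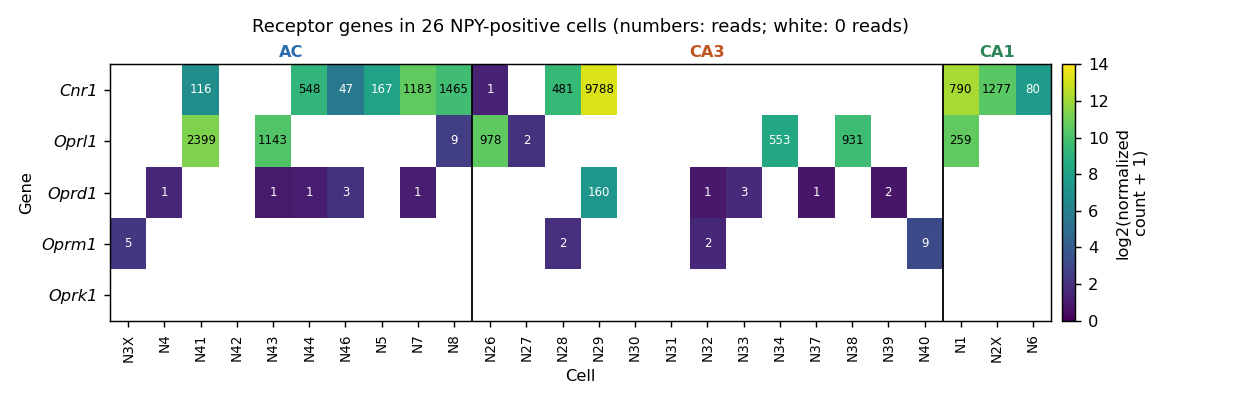
Level of each receptor gene (rows) in each of the 26 cells (columns, grouped by area), coloured by log2(normalized count + 1), with the read count printed and white where there was no read. Reads of Cnr1 were found in 6 of 10 AC, 3 of 13 CA3 and 3 of 3 CA1 cells, Oprl1 in 3, 4 and 1, and Oprk1 in none.

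Cnr1, the CB1 receptor gene, was read in more of the AC than of the CA3 cells. In AC it had 1465 reads in N8, 1183 in N7, 548 in N44, 167 in N5, 116 in N41 and 47 in N46, and 0 in N3X, N4, N42 and N43. In CPM the AC cells ran from 0 over a median of 20.5 to 525. In CA3 it had 9788 reads in N29, 481 in N28, 1 in N26 and 0 in the other 10 cells. AC thus held 6 of 10 cells with reads, 60% (exact Clopper-Pearson 95% interval 26.2 to 87.8%), and CA3 held 3 of 13, 23.1% (5.04 to 53.8%). These intervals cover counting error over the cells at hand only, and are no comparison of the areas. All 3 CA1 cells had reads, 790 in N1, 1277 in N2X and 80 in N6, which is 1313, 399 and 65.0 CPM.

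That distribution over cells was set beside those of all genes. Of the 13624 genes read in at least 1 of the 23 AC and CA3 cells, 62 (0.455%) were read in at least as many AC cells and at most as many CA3 cells as Cnr1. The 62 include Cnr1 itself, whose own counts set both limits. A gene read in few cells or in nearly all could not meet them, so this share does not show how rare the distribution is. Thinning every cell to 601000 reads left the number of cells with Cnr1 reads at 6 in AC, 3 in CA3 and 3 in CA1. The CA3 cells include N26, whose 1 read was kept or lost by the random draw, and 2 CA3 cells had at least 10 reads before thinning. AC cells with and without Cnr1 reads overlapped in depth, with 1890911 to 6265431 gene reads in the 6 and 1715012 to 4056733 in the other 4. Over all labelled cells of each area, including those outside the 26, 6 of 19 cells from AC (20 columns, where N4 and N4X, given as the rounded mean of both, count once) and 3 of 21 from CA3 held Cnr1 reads. Among the added columns, N10, N13, N17 and N22 held 11220 to 14538 CPM of astrocyte markers and N15, N18 and N23 held 16679 to 119814 CPM of oligodendrocyte markers, and none of these 7 had a neurogliaform marker read. The added AC columns N9 and N47 to N52 had 738 to 1814 detected genes, against 3163 to 6288 in the 10 AC cells.

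The mean level of Cnr1, as log2(normalized count + 1), was 5.01 ± 4.53 (SD, n = 10 cells) in AC, 1.84 ± 4.29 (n = 13) in CA3 and 10.09 ± 2.27 (n = 3) in CA1. The AC mean was 3.17 log2 units above the CA3 mean, a gap smaller than either SD. It was 1.41 over all labelled cells and 1.82 with a pseudocount of 10 in place of 1. The median gene of the 5964 that had reads in at least 10 of the 23 cells stood at -0.91, so relative to that gene Cnr1 stood 4.08 units higher in AC. Cnr1 itself had reads in 9 of the 23 cells, and relative to the median of all 13624 genes with a read there (-0.35) it stood 3.52 units higher. A difference of at least 1 unit is called here. With Cnr1 among the 13624 genes read in any of the 23 cells, 13.6% of genes were called higher in AC and 32.8% higher in CA3. In order of mean level CA1 stood above AC, and AC above CA3. The step from CA1 to AC was larger than either SD with N1, and smaller than the AC SD without it (CA1 9.05 ± 1.94, n = 2).

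The summed reads gave the opposite order for AC and CA3. Cnr1 summed to 104 CPM in AC (3526 reads, exact Poisson 95% interval 100 to 107), 210 CPM in CA3 (10270 reads, 206 to 214) and 426 CPM in CA1 (2147 reads, 409 to 445), or 306 CPM in CA1 without N1. The single cell N29 held 95.3% of the CA3 reads. There Cnr1 stood at 3091 CPM and ranked 18 by reads among the genes of the cell. Without N29 the CA3 sum was 10.5 CPM, and the ratio of AC to CA3 went from 0.493 to 9.82. These intervals cover counting error only, since reads of amplified cDNA are not independent molecules.

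**Figure D2:**
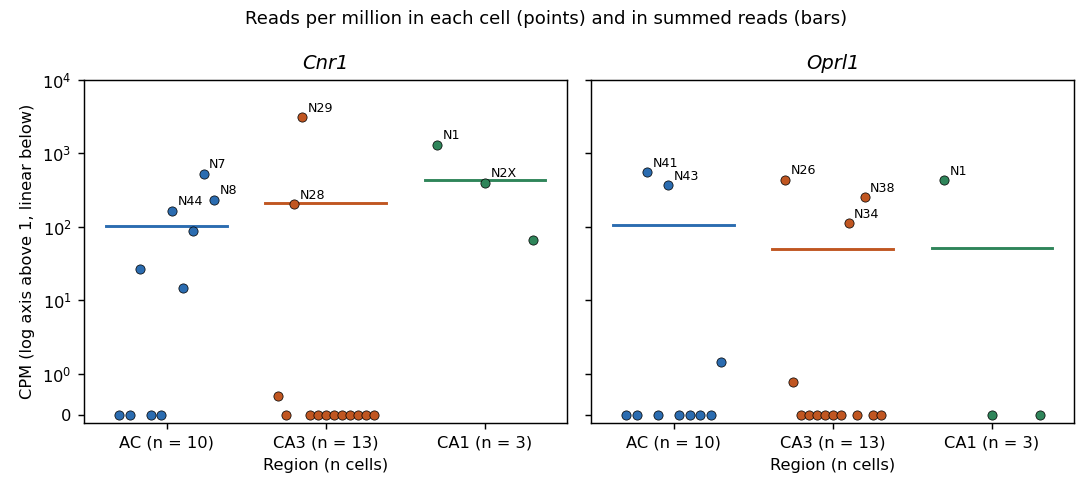
CPM of Cnr1 (left) and Oprl1 (right) in each cell (points) and over the summed reads of an area (horizontal bars), on an axis that is logarithmic above 1 and linear below. The CA3 bar of Cnr1, at 210 CPM, lies above 12 of its 13 cells because N29 stands at 3091 CPM.

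Cnr1 reads also went with genes that part the interneuron subclasses, a split that largely follows the areas. Lhx6 had no read in 14 of the 26 cells, namely all AC and CA1 cells and N29, and 10 of them held at least 10 Cnr1 reads. Among the 12 CA3 cells with Lhx6 reads, N28 alone reached 10 Cnr1 reads, though in N27 and N38 Lhx6 itself had 2 reads each. Ndnf, which marks neurogliaform cells of layer 1, was read in 11 cells, of which 9 held Cnr1 at 10 reads or more, against 2 of the 15 cells without it. Nos1, of the same marker list, went the other way, with Cnr1 in 4 of the 17 cells that had its reads and in 7 of the 9 that did not. Reln and Lamp5 were read in 23 and 25 cells, 10 of them with Cnr1 in either case. N29 had 2125 reads of Ndnf, 479 of Parm1 and 90 of Kit, genes at 0 in most CA3 cells, but none of Lamp5. Cck gave no such match over the cells: of the 15 cells with Cck reads 4 held Cnr1, and of the 11 without it 7 did. N28 was among those 4, with 481 Cnr1 and 3443 Cck reads. Its CCK-type markers summed to 1468 CPM, the highest value of the 26 cells.

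The genes whose levels over the 26 cells were most like that of Cnr1, ranked by Spearman's coefficient among 6596 genes, were Gse1 (0.715), Necab1 (0.702), Gins2 (0.697), Ndnf (0.689) and Wdfy3 (0.630). Necab1 is a calcium-binding protein known from CB1-bearing interneurons, Gins2 a subunit of the DNA replication complex GINS, and Wdfy3 an adaptor of selective autophagy. Necab1 was read in 9 of the 11 cells with at least 10 Cnr1 reads and in 4 of the other 15. The coefficient of Cnr1 was -0.13 with the number of detected genes and -0.36 with the total reads. These values are descriptions over cells of 3 areas, with the difference between areas contained in them.

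**Figure D3:**
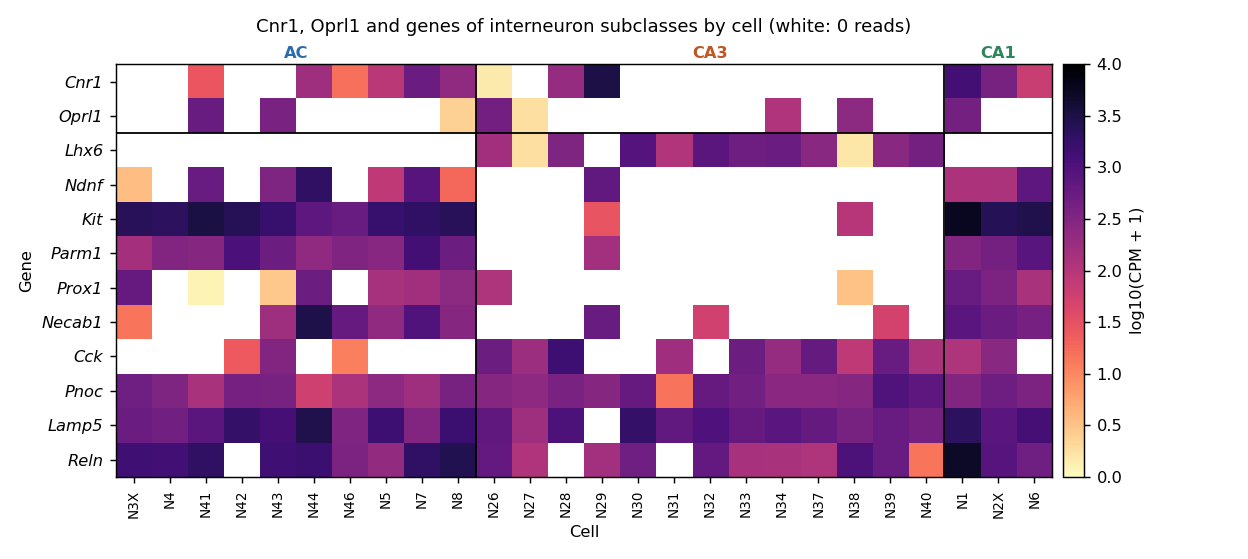
Level as log10(CPM + 1) of Cnr1, Oprl1 and 10 other genes (rows) in the 26 cells (columns, grouped by area), white where there was no read. Lhx6 was read in 12 of the 13 CA3 cells and in no AC or CA1 cell, and N29 is the CA3 cell that lacks Lhx6 and holds Ndnf, Parm1 and the highest Cnr1 level.

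Oprl1, the nociceptin receptor gene, was read at a similar share of cells in the 2 main areas. In AC it had 2399 reads in N41, 1143 in N43, 9 in N8 and 0 in the other 7 cells. In CA3 it had 978 reads in N26, 931 in N38, 553 in N34, 2 in N27 and 0 in the other 9. CA1 held 259 reads, all in N1. The share of cells with reads was 30% in AC (6.67 to 65.2%), 30.8% in CA3 (9.09 to 61.4%) and 33.3% in CA1 (0.84 to 90.6%).

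In the cells that held at least 10 reads, Oprl1 was far from the detection limit, at 549 and 366 CPM in the AC cells and 439, 254 and 111 CPM in the CA3 cells. On the log2 scale AC averaged 2.41 ± 4.48, CA3 2.36 ± 4.16 and CA1 3.52 ± 6.10. The AC minus CA3 difference of 0.04 was small against either SD, and its sign turned with TMM factors (-0.03), without N41 (-0.94), without N43 (-0.82) and without any 1 of the 9 CA3 cells at 0 reads (-0.15). Relative to the median gene it was 0.95 with the 5964 genes and 0.40 with the 13624. By summed reads Oprl1 stood at 104 CPM in AC (101 to 108), 50.4 CPM in CA3 (48.5 to 52.5) and 51.4 CPM in CA1 (45.4 to 58.1). Each sum leaned on its highest cell: without N41 the AC sum was 38.8 CPM, and without N26 that of CA3 was 31.9 CPM.

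Oprd1, the delta opioid receptor gene, was read in many cells at 1 to 3 reads and at a higher count in a single cell. In AC it had 3 reads in N46 and 1 read in each of N4, N43, N44 and N7. CA3 held 160 reads in N29 (50.5 CPM), 3 in N33, 2 in N39 and 1 in each of N32 and N37, and CA1 held none. That is 5 of 10 AC, 5 of 13 CA3 and 0 of 3 CA1 cells. N29 was thus the cell with the highest count of Oprd1 as well as of Cnr1, and it held 95.8% of the CA3 reads of Oprd1. After thinning, 1 cell in each of AC and CA3 had an Oprd1 read.

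Oprd1 averaged 0.69 ± 0.78 in AC against 0.90 ± 2.01 in CA3 on the log2 scale, a difference of -0.21, and of 0.33 without N29. Relative to the median gene it was 0.70 with the 5964 genes and 0.14 with the 13624. By summed reads Oprd1 stood at 0.206 CPM in AC (0.0826 to 0.424), or 0.130 CPM without N46, and 3.42 CPM in CA3 (2.92 to 3.98), and at 0.153 CPM in CA3 without N29. Oprd1 was the only receptor gene of the 5 that was read in at least 10 of the 23 cells, and 9 of its 10 cells held 3 reads or fewer. Among the 5964 genes that met that limit 15.4% were called higher in AC and 48.1% higher in CA3, and Oprd1 was called in neither direction. Over all labelled cells its difference was 1.01, past the limit of 1 unit and higher in AC. The AC columns added there held 88 Oprd1 reads in N45 and 1 or 2 reads in each of N9, N47, N49 and N51. N9 had 222814 gene reads and 866 detected genes, and in so shallow a library 2 reads give a high level after scaling. The genes most like it over the 26 cells, Arih2 (0.696), Rif1 (0.655), Tomm34 (0.648), Irf2bp2 (0.624) and Dapk1 (0.623), were ranked on these few reads.

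Oprm1, the mu opioid receptor gene, summed to 18 reads in the 26 cells. N3X of AC had 5, and N40, N28 and N32 of CA3 had 9, 2 and 2, while CA1 had none. Its log2 level averaged 0.22 ± 0.71 over the AC cells and 0.51 ± 1.02 over those of CA3. The difference of -0.28 is smaller than either SD, and stood 0.07 above the median of the 13624 genes and 0.63 above that of the 5964. The summed level was 0.147 CPM in AC (0.0477 to 0.343) and 0.266 CPM in CA3 (0.142 to 0.455). Without N40, which held 69.2% of the CA3 reads, the CA3 sum was 0.0898 CPM, below that of AC. The opposite-strand neighbour Ipcef1 had 225, 1354, 783 and 76 reads in N3X, N40, N28 and N32. All 4 cells with Oprm1 reads thus also held Ipcef1, which was read in 8 of the 26 cells. Since the library kit does not mark strand, reads in the 96 shared exon bases cannot be told apart.

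Oprk1, the kappa opioid receptor gene, had 0 reads in the 10 AC, 13 CA3 and 3 CA1 cells. A count of 0 allows up to 0.0881 CPM over AC, 0.0614 CPM over CA3 and 0.596 CPM over CA1, so CA1 was the area where the depth limited the statement most. In shares of cells with a read, 0 of 10 and 0 of 13 have exact Clopper-Pearson upper bounds of 30.8% and 24.7%, which cover counting error and do not limit the share of cells that express the gene.

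**Figure D4:**
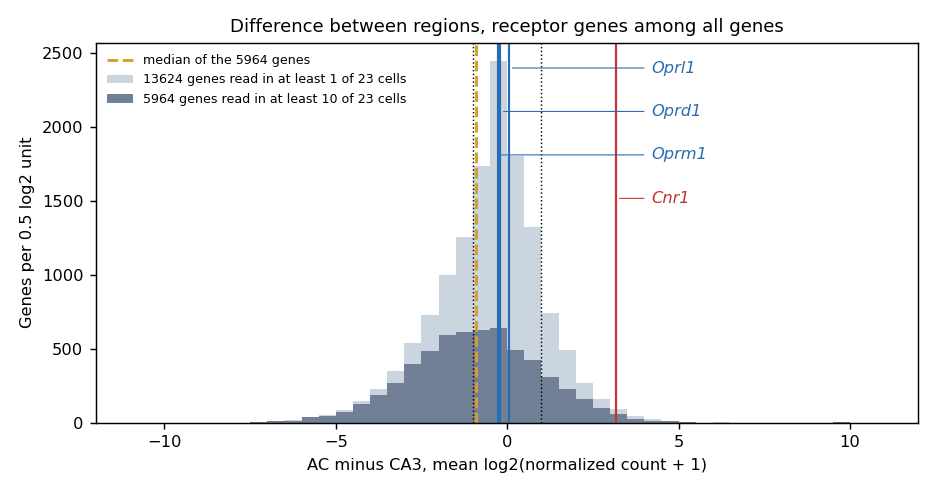
Number of genes (vertical axis) by AC minus CA3 difference in mean log2(normalized count + 1) (horizontal axis), for genes read in at least 1 (light) or at least 10 (dark) of the 23 cells. Cnr1, at 3.17, lies past the dotted line at 1, while Oprl1, Oprd1 and Oprm1 lie between the dotted lines, and the median gene (dashed) stands at -0.91.

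Most cells held reads of 1 or 2 of the 5 genes. Counting any read, 3 cells held none of the 5 (N42, N30 and N31), 12 held 1 and 11 held 2. The mean number was 1.5 ± 0.71 in AC, 1.15 ± 0.69 in CA3 and 1.33 ± 0.58 in CA1. With a limit of 10 reads, 11 cells held none, 12 held 1 and 3 held 2. Cnr1 and Oprl1 then met in 2 cells, N41 and N1, while 9 cells held Cnr1 without Oprl1 and 4 held Oprl1 without Cnr1. In N29, the other cell with 2 of the genes, Cnr1 stood beside Oprd1. In N41 the RPKM was 146 for Oprl1 and 4.12 for Cnr1, and in N1 it was 115 and 204, so the more abundant receptor gene differed between the 2 cells.

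Of the opioid peptide precursor genes, Pnoc, the source of nociceptin, was read in all 26 cells, at 289 CPM summed over AC, 465 over CA3 and 442 over CA1. Over the 26 cells it stood at 183 RPKM against 19.01 for its receptor gene Oprl1. Pnoc reads were therefore present in each of the 8 cells with Oprl1 reads and in the 18 without. Penk, the enkephalin precursor gene, had reads in 2 CA3 cells, and Pdyn (dynorphins) and Pomc (beta-endorphin) had none. Of the 4 genes, Pnoc alone met the limit of at least 10 of the 23 cells, with a difference of -0.38.

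Endocannabinoid enzymes and partners showed both directions. Of 12 genes, 10 had reads and 7 met the limit of 10 cells. Necab1 (5.02) and Abhd12 (1.5), a serine hydrolase of 2-arachidonoylglycerol, were called higher in AC. Mgll, the main hydrolase of that endocannabinoid, was called higher in CA3 (-3.29), together with Cnrip1 (-2.16), which encodes a protein that binds the CB1 receptor tail, and the synthetic enzyme gene Daglb (-1.57, or -0.66 relative to the median gene). That is 2 of 7 in AC and 3 of 7 in CA3, beside 15.4% and 48.1% of all 5964 genes. By summed CPM Cnrip1 was at 225 in AC and 234 in CA3 and Abhd12 at 579 and 453, both within 1 log2 unit. The list's median difference was -0.39, against -0.91 over those genes. Mgll had reads in 7 of the 10 AC cells and 12 of the 13 CA3 cells, at 157 and 363 summed CPM, opposite to the share of cells with Cnr1. Dagla, whose product makes most 2-arachidonoylglycerol in brain, was read in 3 AC and 3 CA3 cells, and Cnr2 (CB2) and Gpr55 in none.

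The 5 G protein genes of the Gi/o class ranged from Gnaz, read in 7 of the 26 cells, to Gnao1 in all. Gnao1, the most abundant Gi/o alpha subunit of brain, had a difference of -0.29. Gnai3 was called higher in AC (4.71), and Gnai1 (-1.54) and Gnai2 (-1.14) higher in CA3. The calls in CA3 are 2 of the 4 genes that met the limit, of 5 listed, beside 48.1% of all genes, and that in AC is 1 of 4 beside 15.4%. Relative to the median gene Gnai1 stood at -0.63 and Gnai2 at -0.23, and by summed CPM Gnai2 was at 116 in AC and 110 in CA3, the other order. The list's median was -0.71. Gnai3 had reads in 7 AC and 4 CA3 cells, 192 against 24.2 summed CPM.

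Among channel and desensitization genes, 3 of the 8 that met the limit were called, all higher in AC, beside 15.4% of all genes, and 0 of 8 were called higher in CA3, beside 48.1%. Of the 4 potassium channel genes opened by Gi/o, 2 met the limit of 10 cells, and Kcnj6 (1.96) was called higher in AC while Kcnj3 (-0.74) was not called. Their median was 0.61. The calcium channel genes had a median of 0.31, with Cacna1a (P/Q-type) at 1.01, just past the threshold, and Cacna1b (N-type) at -0.39. Of the 8 listed arrestins and receptor kinases 6 were in the table, since Grk2 and Grk3 stand there as Adrbk1 and Adrbk2. Adrbk1 (2.86) was called higher in AC, Adrbk2 (-0.92), Grk6 (0.79) and Arrb1 (0.57) were not called, and the median of these 4 was 0.68. By summed CPM Adrbk2 was at 222 in AC and 119 in CA3 and Cacna1b at 33.3 and 24.4, the other order for both. Relative to the median gene, Grk6 stood at 1.70 and Arrb1 at 1.48.

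Other presynaptic receptor genes of the Gi/o class served as a yardstick. Of 22 genes, 15 had reads in the 26 cells and 3 met the limit of 10 cells. Hrh3, a histamine receptor gene, was called higher in AC (3.03), Gabbr1 higher in CA3 (-1.06), and Gabbr2 (0.70) was not called. That is 1 of 3 in each direction, beside 15.4% and 48.1% of all genes. Relative to the median gene Gabbr1 stood at -0.15 and Gabbr2 at 1.61. The median of the 3 was 0.70. Gabbr1 was read in all 26 cells, unlike any of the 5 cannabinoid and opioid receptor genes. The 7 without a read, which include Drd2, Npy2r and Adra2a, shared that with Oprk1.

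**Figure D5:**
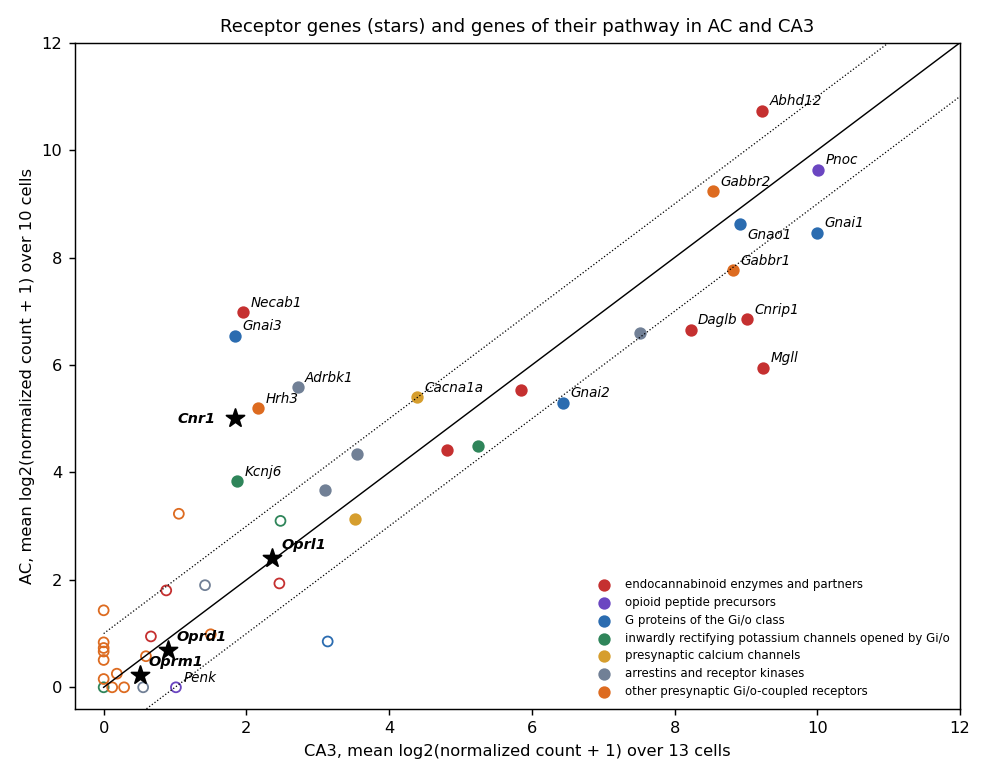
Mean log2(normalized count + 1) in AC (vertical) against CA3 (horizontal) of the receptor genes (stars) and of the pathway genes with reads (points coloured by list, open where the gene was read in fewer than 10 of the 23 cells), with the line of equality and dotted lines 1 unit to either side. Cnr1 lies above the upper dotted line near Hrh3 (3.03) and Necab1 (5.02), and Mgll (-3.29) and Cnrip1 (-2.16) lie below the lower.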

How the data were processed

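Cytosol of single NPY-positive neurons was sequenced, and the deposited file is a table of raw counts with 22800 gene symbols and 47 columns. According to the methods, Trimmomatic and Flexbar served for trimming, STAR for alignment (GRCm38) and HTSeq for counting, whereas the submitters' processing notes name Trimmomatic, STAR and featureCounts. The authors averaged identifiers that share a symbol. No normalization had been applied to the deposited counts.

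Groups came from the cell type label. The 5 receptor genes, the 26 cells, the 7 pathway lists, the marker lists and the genes set beside Cnr1 were chosen with earlier results of these data known. The 26 cells are those that an earlier comparison with the study's heat maps had matched to columns, so all labelled cells are given beside them. Size factors came from scran 1.30.0 (computeSumFactors, pools of 10 and 20 cells) in R 4.3.3, and levels are log2(normalized count + 1). RPKM used the exon union of GENCODE vM21. Differences are means over cells, AC minus CA3, for genes read in at least 10 of the 23 cells (5964 genes) or in at least 1 (13624 genes). A difference of at least 1 log2 unit is called, with no test. Intervals are exact Poisson and Clopper-Pearson, at 95%. A count of 0 allows 3 reads. Named genes are the 5 receptor genes, list members with the largest differences, and the 5 genes most like a receptor gene read in at least 10 of the 26 cells. List members named beyond these were chosen after their values were seen. The scripts were tested on simulated data. Alternatives were other scalings (library size, TMM of edgeR 4.0.16, poscounts of DESeq2 1.42.0, scran over all cells left by a filter), pseudocounts, summed CPM, a limit of 10 reads, all labelled cells, thinning to 601000 reads, each cell left out, and, chosen after seeing the data, N29 and N46 set aside together and N29, N46, N1, N40 or N41 alone.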

Additional observations from a re-analysis of the deposited data

Results flagged for a closer look

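Oprm1 in the AC cell N3X had a level of 2.24, from 5 reads, while the other 9 AC cells had none, so that the gap to the next cell made up the whole range, as it must where 1 cell alone has reads.

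The AC-labelled column N45, outside the 26 cells, held 962 Oprl1 reads, which is 183 CPM, above the 0.57 CPM that a count of 0 allows in its 5265115 reads. The same column held 88 Oprd1 reads, which is 16.7 CPM. N45 had 1302 Lhx6 reads and none of Pnoc or Lamp5, both of which were read in all 10 AC cells described. It also lacked reads of Reln, as N42 of those 10 did. N45 held 50.3 CPM of Sst, 534 CPM of oligodendrocyte and 519 CPM of microglia markers, and the source of its reads was not tested.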

How the results depend on the processing

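With the log2 ratio of summed CPM in place of the mean level, the AC minus CA3 difference was -1.02 for Cnr1, the reverse of 3.17, and -4.06 for Oprd1, where N29 holds 95.3% and 95.8% of the CA3 reads. Leaving out each cell in turn gave 2.56 (without N7) to 4.12 (without N29) for Cnr1, -0.94 (without N41) to 0.73 (without N26) for Oprl1, -0.36 to 0.33 for Oprd1 and -0.51 to -0.06 for Oprm1. Oprk1 stayed at 0 throughout. Across the 4 other scalings Cnr1 stood at 3.14 to 3.18, and at 1.82 and 4.44 with pseudocounts of 10 and 0.1, 1.41 over all labelled cells, 3.11 after thinning and 4.05 with N29 and N46 set aside, which left Cnr1 reads in 55.6% of the AC cells and 16.7% of those of CA3. Oprd1 was 1.01 over all labelled cells, past the limit of 1 unit, and 0.11 with a pseudocount of 0.1. With a limit of 10 reads the share of cells with Oprm1 was 0% in AC and 0% in CA3, and with Oprd1 0% in AC and 7.69% in CA3. After thinning it was 0% for Oprm1 in AC, 10% for Oprd1 in AC and 7.69% in CA3. The receptor genes read per CA3 cell fell from 1.15 to 0.462 with that limit. Genes called higher in AC numbered 916, against 600 over all labelled cells, 1854 without the limit of 10 cells and 794 to 1036 with a cell left out. Those higher in CA3 numbered 2867, against 3918 over all labelled cells, 4465 without that limit and 2531 to 2928 with a cell left out. No paired analysis was possible because no label ties cells of the areas to a mouse or number. With no mouse named, p-values could not be had, and cytosol samples at these depths leave 1 to 3 reads at the limit of detection.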

Other observations

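In the 21 columns outside the 26 cells, which hold 28249904 gene reads, Cnr1, Oprm1 and Oprk1 had no read, and a count of 0 allows up to 0.106 CPM there. Oprd1 was read in 6 of these columns, in 5 of them at 1 or 2 reads, and Oprl1 in 1.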
